A study of Mus musculus with 4 samples.

Results

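MHC class II presentation was examined at the RNA level in cultured group 2 innate lymphoid cells (ILC2s) through 9 genes, picked by symbol from the 27179 rows of the deposited count table. They were the class II chains H2-Aa, H2-Ab1 and H2-Eb1, the invariant chain gene Cd74, the peptide loading genes H2-DMa and H2-DMb1, the class II transactivator Ciita, and the costimulatory ligands Cd80 and Cd86. The rule is the symbols alone, although earlier results of these data were known when the genes were chosen. ILC2s had been sorted from the large intestine of WT C57BL/6 mice as lineage-negative, CD127+ KLRG1+ cells and cultured for 5 days with 4 cytokines at 10 ng/mL each, namely IL-25, IL-33, IL-7 and IL-2. They then received vehicle or 100 μM deoxycholic acid (DCA), a secondary bile acid made by gut bacteria, with 2 libraries per treatment. The length of the treatment is given as 24 hours in the methods of the study and as 16 hours in the design text. All 4 libraries share the genotype, the cytokines and the culture time, and the number of mice behind each library is not given in the sources used here, so the p-values measure the spread between these libraries, which may be technical.

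A class II molecule is made of an α and a β chain that pair in the ER on the invariant chain, CD74. In endosomes, cathepsins and legumain degrade the invariant chain, and H2-DM exchanges its remnant for a peptide that CD4+ T cells can read. CIITA binds no DNA itself and switches on class II, Cd74 and H2-DM genes through RFX and NF-Y factors already sitting on the X and Y boxes of their promoters. CD80 and CD86 provide the costimulatory signal through CD28 and are also bound by the inhibitory receptor CTLA4. ILC2s have been described to carry class II on their surface and to present antigen, at lower levels than dendritic cells or B cells.

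The promoter stretches of 3 members are shown because they hold a pair of short sequences that resembles the X and Y boxes. RefSeq promoter windows on GRCm38.p6, from 250 bases before the start site to 50 bases from it onward, were found for 5 of the 9 genes. Among these members the X box, searched as CCTAGNNAC on both strands, was found in the H2-DMb1 window alone. It stood in 3.91% of the 32851 promoter windows of the same length, and the Y box, searched as CCAAT, in 37.4% of them. After the windows had been read, GNAAC, a narrower form of the last letters of the X box, followed by ATTGG (the Y box on the other strand), 30 to 33 bases from start to start, was also searched on both strands. This pair stood in H2-Aa, H2-Eb1 and H2-DMb1, but not in the windows of H2-DMa or Cd80, and in 0.712% of all windows. It also stood in 3 of 4 other class II genes with a window, among them H2-Ob with the spacing of 30 bases. Since the pair was set after these windows had been read, finding it in them is no test, and the share over all windows does not make it one. The stretches lie on the gene's own strand at chr17:34287857-34287914 (minus) for H2-Aa, chr17:34305766-34305822 (plus) for H2-Eb1 and chr17:34153087-34153144 (plus) for H2-DMb1, and capitals mark GNAAC and ATTGG:
H2-Aa: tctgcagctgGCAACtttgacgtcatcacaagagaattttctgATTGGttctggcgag
H2-Eb1: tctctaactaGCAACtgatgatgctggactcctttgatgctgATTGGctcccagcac
H2-DMb1: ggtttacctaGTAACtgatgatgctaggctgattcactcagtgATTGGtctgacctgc
Counted from the start site, ATTGG began at -48 in H2-Aa, -59 in H2-Eb1 and -61 in H2-DMb1.

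The libraries held between 26564059 and 244165712 counts, and the deepest was DCA replicate 2. Reads fell on 12302 to 15592 genes per library. Levels are given as CPM, the counts of a gene relative to the TMM-scaled library size. Where no read was counted, up to 3 counts remain possible, or 0.115 CPM in the shallowest library and 0.0125 CPM in DCA replicate 2, a limit that covers counting error only. All 10 ILC2 markers examined were found in all libraries, with Gata3, the defining transcription factor, at 599 to 839 CPM and Il7r, which encodes the sorted CD127, at 350 to 582 CPM. Markers with an unadjusted edgeR p under 0.05 were Klrg1 (356 to 688 CPM) and Il1rl1 (533 to 876 CPM), lower with DCA, and Il2ra (1074 to 1613 CPM), higher with DCA, and all had an adjusted p of 0.999. Among all 11184 genes tested, 478 (4.27%) had an unadjusted edgeR p under 0.05. The markers fixed as defining for other antigen-presenting cells were at or near 0, but some other genes of the same marker lists were not. Itgax and Csf1r had 0 counts in all 4 libraries, Ms4a1 and Lyz2 had 2 counts in DCA replicate 2 alone, Cd79a had 10 in DCA replicate 1 alone, and Flt3, Zbtb46 and Adgre1 had at most 10 counts in any library. Cd79b was at 37.4 to 55.1 CPM, Xcr1 at 23.97 to 46.3 CPM, Ccr7 at 13.9 to 68.8 CPM and Cd68 at 7.30 to 24.3 CPM.

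**Figure D1:**
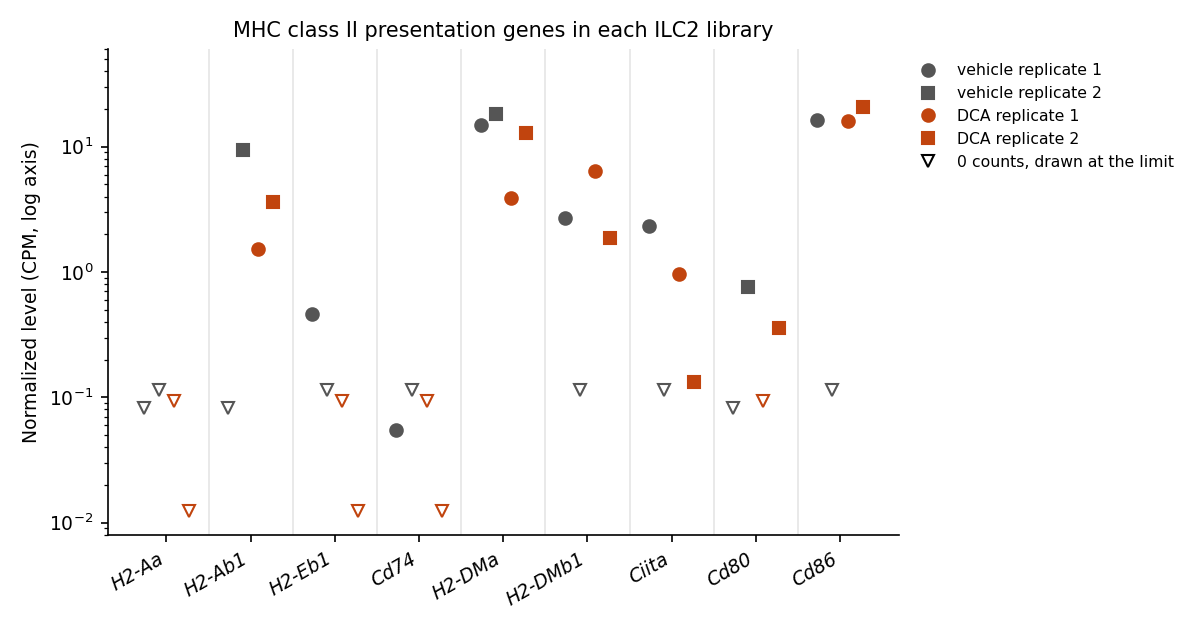
TMM-normalized level (CPM, log axis) of the 9 class II presentation genes in each vehicle library (grey) and each DCA library (orange). Open triangles are 0 counts, drawn at the limit that a 0 allows in that library; H2-Aa shows triangles alone, and Cd86 lies between 16.1 and 20.7 CPM in 3 libraries with a triangle in vehicle replicate 2.

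Among the chains of the class II molecule, H2-Aa had no reads, H2-Eb1 had few, and H2-Ab1 was found in 3 of the 4 libraries. H2-Aa, the α chain of I-A (Entrez gene 14960, chromosome 17, 34282744 to 34287823 on GRCm38), had 0 counts in all 4 libraries. The gene of its β chain partner, H2-Ab1 (Entrez gene 14961, chromosome 17, 34257689 to 34269419), was nonetheless found in 3 libraries, with 0 and 246 counts in the vehicle libraries against 49 and 871 counts in the DCA libraries. Scaled to library size, H2-Ab1 was at 0 and 9.39 CPM without DCA and at 1.52 and 3.62 CPM with it, so the vehicle libraries lay on either side of both DCA libraries. The vehicle mean was 4.695 ± 6.64 CPM and the DCA mean 2.57 ± 1.49 CPM (SD, n = 2 libraries each). The edgeR quasi-likelihood test gave a log2 fold change of -0.87 (unadjusted p = 0.731, adjusted p = 0.999), whereas on the log2(CPM + 1) scale the difference was 0.081 (standard error 1.74), so its sign is not settled by these libraries.

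H2-Eb1, the β chain of I-E (Entrez gene 14969, chromosome 17, 34305867 to 34316674), had 17 counts in vehicle replicate 1, or 0.465 CPM, and 0 in the other 3 libraries. H2-Ea, named for the α chain of I-E, had 14 counts in the same vehicle library and 2 in DCA replicate 1. GENCODE M21 does not class H2-Ea as protein-coding, so a complete I-E pair is not assumed here. Cd74 (Entrez gene 16149, chromosome 18, 60803848 to 60812652) had 2 counts in vehicle replicate 1 and 0 in the other 3 libraries, including the deepest. All 3 genes, H2-Aa, H2-Eb1 and Cd74, were under the minimum for the test, and with reads in at most 1 library no fold change is given for them. In bulk RNA, few cells with a transcript and little of it in each cell cannot be told apart.

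H2-DM chaperones peptide exchange on class II, and both of its chains were detected. H2-DMa, the α chain (Entrez gene 14998, chromosome 17, 34119541 to 34139101), had 550 and 474 counts in the vehicle libraries against 125 and 3098 counts in the DCA libraries. Scaled, this is 15.03 and 18.1 CPM without DCA and 3.87 and 12.9 CPM with it. Both DCA libraries lay below both vehicle libraries, as they did for 14.7% of the 11184 genes tested. The log2 fold change of H2-DMa was -0.98, and the difference on the log2(CPM + 1) scale was -1.09 (standard error 0.77). The edgeR p of H2-DMa was 0.260 before and 0.999 after adjustment, and the two-sided exact permutation p was 0.333, the smallest that 2 libraries against 2 can give. Leaving out DCA replicate 1 gave a log2 fold change of -0.37 for H2-DMa, and leaving out DCA replicate 2 gave -2.10. Exons of H2-DMa overlap those of Brd2, a chromatin reader gene on the opposite strand, over 360 bases in GENCODE M21, and the strand setting of the counting is not given in the sources used here. Brd2 was at 63.1 to 88.7 CPM, and the part of its reads in the H2-DMa counts was not tested. Cd68, a lysosomal membrane protein listed here as a macrophage marker, was also lower in both DCA libraries, the order of 14.7% of all genes tested. It was at 24.3 and 23.97 CPM in the vehicle libraries against 7.30 and 10.1 CPM in the DCA libraries (log2 fold change -1.47, edgeR unadjusted p = 0.0381, adjusted p = 0.999). Of the 10 macrophage and monocyte markers, 6 were at 0 in all libraries. The summed level of the list was 24.7 and 26.8 CPM in the vehicle libraries against 7.30 and 10.3 CPM in the DCA libraries. Cd68 made up most of this sum in every library, so the sum adds little to Cd68 itself. The part of such cells in the H2-DMa values was not tested.

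H2-DMb1, the β chain of H2-DM (Entrez gene 14999, chromosome 17, 34153072 to 34160230), had 99 and 0 counts in the vehicle libraries against 208 and 447 counts in the DCA libraries. In CPM these were 2.71 and 0 against 6.43 and 1.86. The treatments overlapped, with DCA replicate 2 below vehicle replicate 1. For H2-DMb1 edgeR fitted a log2 fold change of 1.61 (unadjusted p = 0.526, adjusted p = 0.999), and the difference in log2(CPM + 1) was 1.26 (standard error 1.17). Its closest relative, H2-DMb2, had a single count in vehicle replicate 1, and reads that both genes could share are uncertain. H2-Oa, a chain of the H2-DM inhibitor H2-DO, had 38 counts in vehicle replicate 1, 15 in DCA replicate 1 and 0 in the replicates numbered 2, and H2-Ob, the partner chain, had 0 counts throughout.

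Ciita, the master switch of the pathway (Entrez gene 12265, chromosome 16, 10480059 to 10528418), had 85 and 0 counts in the vehicle libraries against 31 and 32 counts in the DCA libraries. At 2.32 and 0 CPM against 0.959 and 0.133 CPM, the DCA libraries lay between the vehicle libraries. The mean of Ciita over the libraries was under 1 CPM, the minimum for the test. Its exons share 329 bases with Dexi on the opposite strand, a gene at 12.1 to 28.2 CPM. The part of Dexi reads in the Ciita counts was not tested.

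Of the CD28 ligands, Cd86 had more RNA per kb than Cd80 in 3 of the 4 libraries. Cd86 (Entrez gene 12524, chromosome 16, 36603869 to 36666081) had 602 and 0 counts in the vehicle libraries against 520 and 4970 counts in the DCA libraries, which is 16.4 and 0 CPM against 16.1 and 20.7 CPM. The 3 libraries with reads were close to each other, and vehicle replicate 2 alone held none. For Cd86 edgeR fitted a log2 fold change of 1.16 (unadjusted p = 0.568, adjusted p = 0.999), and the difference in log2(CPM + 1) was 2.203 (standard error 2.07). Leaving out vehicle replicate 2 gave 0.16 with an edgeR adjusted p of 0.945. Leaving out vehicle replicate 1 made the vehicle level of Cd86 0, and edgeR then fitted 13.8 with an adjusted p of 0.0448. That value is no bound on the change, and the spread in this fit comes from the DCA libraries, with the lone vehicle library assumed to vary like them. Cd80 (Entrez gene 12519, chromosome 16, 38455561 to 38496335) had few reads, with 0 and 20 counts in the vehicle libraries against 0 and 86 counts in the DCA libraries, or 0.763 CPM in vehicle replicate 2 and 0.357 CPM in DCA replicate 2. The libraries with Cd80 reads were those numbered 2 in both treatments.

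Vehicle replicate 2, the shallowest library, lacked reads of Cd86, H2-DMb1, Ciita, H2-Eb1 and Cd74 but had the highest H2-Ab1 level. Among genes whose mean in the other 3 libraries was within 1.5 times that of the gene in question, 1.22% of 1971 were also at 0 in vehicle replicate 2 at the level of Cd86, 20.497% of 1127 at the level of H2-DMb1 and 43.1% of 923 at the level of Ciita. At the level of H2-Ab1, 9.37% of 1217 genes were at 0 in vehicle replicate 1. An empty library was thus common for genes as scarce as Ciita and rare for genes as abundant as Cd86.

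Across the list, 4 of the 9 genes (H2-Ab1, H2-DMa, H2-DMb1 and Cd86) reached the mean of 1 CPM needed for the test, and 8 had at least 1 count somewhere. Among the 4, the edgeR test placed 0 under an adjusted p of 0.05 and 0 under an unadjusted p of 0.05. DESeq2 and limma also gave 0 members past an adjusted p of 0.05. Over all 11184 genes the edgeR test called 0% (0 genes) at an adjusted p of 0.05 and 4.27% (478 genes) at an unadjusted p of 0.05, while limma called 0 of the same genes after adjustment. DESeq2, run without that filter and with its own, called 253 of 12900 genes. Both DCA libraries lay above both vehicle libraries for 0 of the 4 genes, against 18.6% of all genes tested, and below for H2-DMa alone. Over all 9 genes the median difference in log2(CPM + 1), DCA minus vehicle, was -0.038, which is the value of Cd74 with its 2 counts. The median was 0.046 over all genes tested, a set unlike the 9, of which 5 were under the minimum and lie near 0 on this scale. The summed level of the 9 genes was 37.0 and 28.2 CPM in the vehicle libraries against 28.9 and 39.5 CPM in the DCA libraries.

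**Figure D2:**
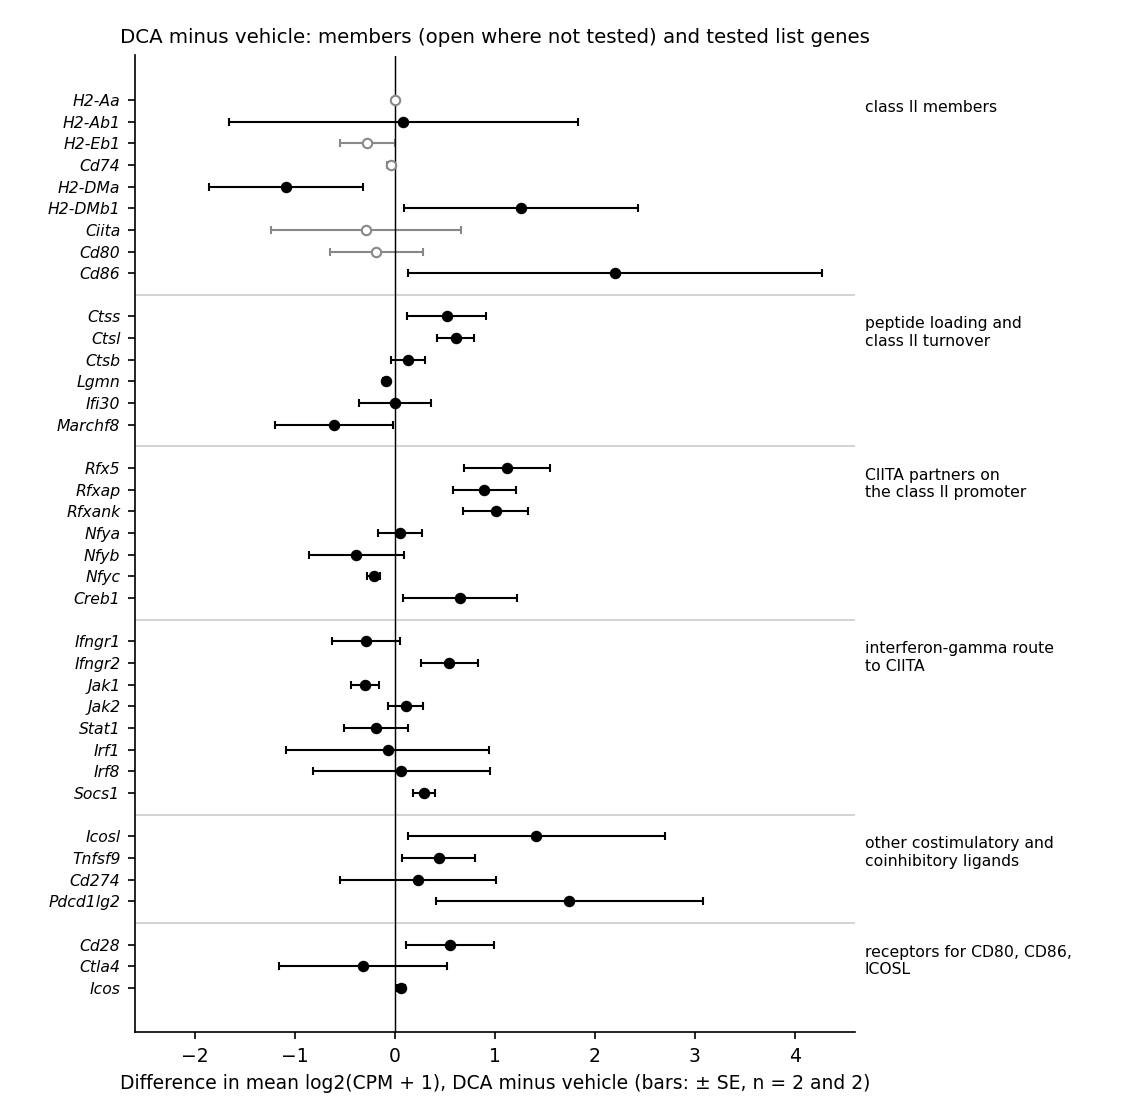
Difference in mean log2(CPM + 1), DCA minus vehicle, for the 9 members (open circles where the gene was under the minimum for the test) and for the tested genes of the accessory lists; bars are ± 1 standard error from 2 libraries per treatment. Cd86, H2-Ab1 and H2-DMb1 carry the widest bars among the members (2.07, 1.74 and 1.17), each with a library at 0.

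Levels of different genes were compared per kb of exon (RPKM, computed here from CPM and GENCODE M21 exon lengths). The mean over the 4 libraries was 3.63 ± 2.49 RPKM (SD, n = 4) for Cd86, 3.62 ± 1.78 for H2-DMa, 1.64 ± 1.61 for H2-DMb1 and 1.41 ± 1.60 for H2-Ab1. Ciita at 0.0895 RPKM, Cd80 at 0.0757, H2-Eb1 at 0.0597 and Cd74 at 0.00814 followed, and H2-Aa was at 0. The ranges of all neighbours in this order overlapped. H2-DMa, the one member with reads in every library, was at 1.12 RPKM in its lowest library, above the highest library of Ciita (0.244), H2-Eb1 (0.239) and Cd80 (0.206). Among 15152 protein-coding genes with a count, Cd86 ranked 6441 and H2-DMa 6451 by mean RPKM, H2-DMb1 ranked 8069, H2-Ab1 ranked 8304, and Cd74 ranked 13356. The median of these genes was 2.09 RPKM by the same exon lengths. When the longest transcript gave the length, H2-DMa was at 6.22 RPKM, Cd86 at 5.24, H2-Ab1 at 2.996 and H2-DMb1 at 1.96. The order among these members thus depends on the length used, and these values are not on the scale of that median. Class I transcripts, chosen for comparison after their values had been seen, were abundant in the same libraries, with B2m at 3725 ± 421 RPKM (SD, n = 4), rank 6, and H2-K1 and H2-D1 from 607 to 1652 RPKM.

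**Figure D3:**
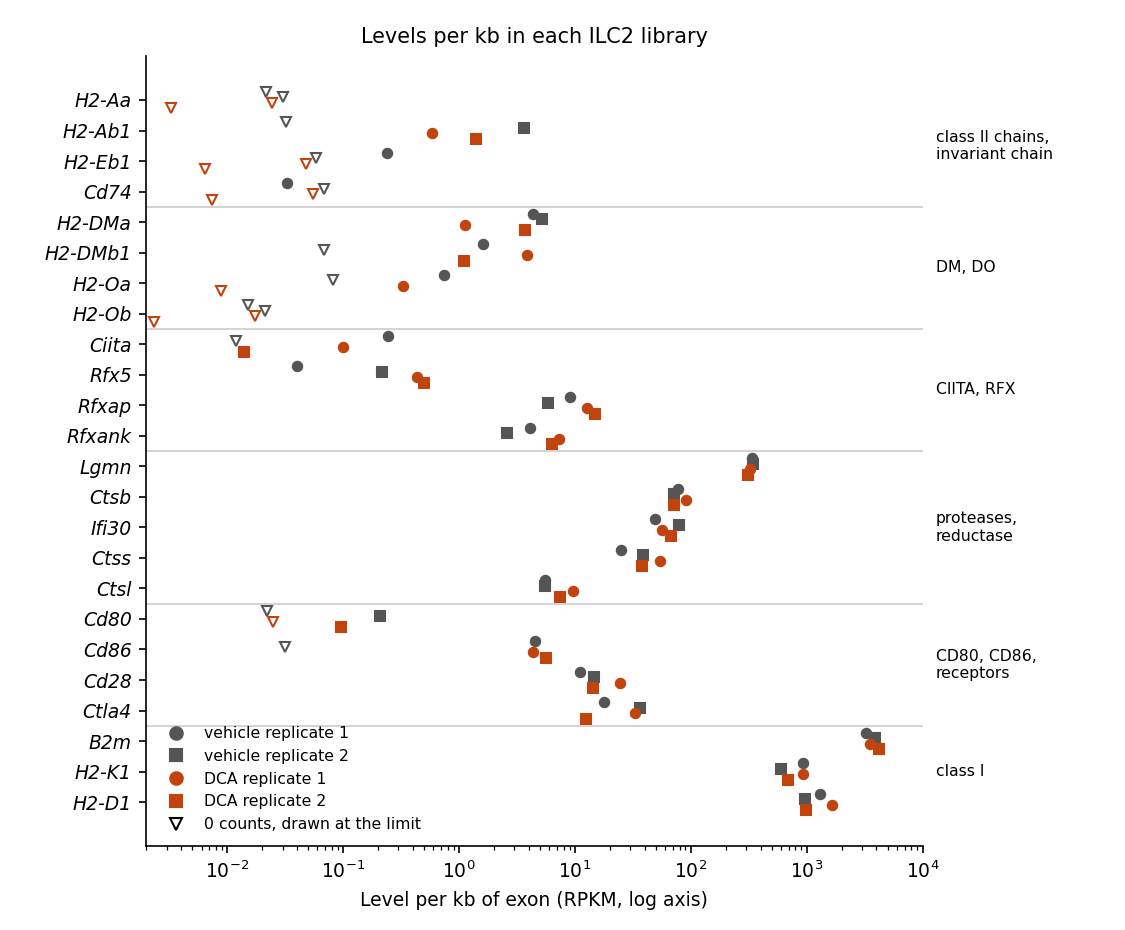
Level per kb of exon (RPKM, log axis) of class II genes, their regulators, endosomal enzymes, CD80, CD86 and their receptors, and class I genes in each library, grey for vehicle and orange for DCA. Open triangles are 0 counts at the limit of that library; Lgmn sits between 312 and 343 RPKM, while Cd74 is at 0.0325 RPKM in vehicle replicate 1 and at triangles in the other libraries.

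The endosomal enzymes that serve class II loading, and many other lysosomal tasks, ranged from Lgmn at 328 ± 13.6 RPKM and Ctsb at 77.7 ± 8.86 RPKM to Ctsl at 7.03 ± 1.98 RPKM (SD, n = 4), with Ctsl nearest to H2-Ab1. Of the 13 genes listed for peptide loading and class II turnover, 6 were tested, and 0 passed an adjusted or an unadjusted p of 0.05 in the edgeR test. Lgmn, which encodes legumain, was at 778 and 798 CPM in the vehicle libraries against 751 and 725 CPM in the DCA libraries (log2 fold change -0.094, edgeR unadjusted p = 0.640). Ctsb, cathepsin B, was at 466 and 431 CPM in the vehicle libraries against 548 and 438 CPM in the DCA libraries, and its DCA libraries overlapped the vehicle range with a log2 fold change of 0.14. Ifi30, the thiol reductase GILT, stood at 48.1 to 77.0 CPM, and Ctss, the cathepsin that trims the invariant chain, at 34.3 to 73.3 CPM. Ctsl was higher in both DCA libraries, as were 18.6% of all genes tested. It was at 35.6 and 35.9 CPM in the vehicle libraries against 62.7 and 48.2 CPM in the DCA libraries (log2 fold change 0.63, edgeR unadjusted p = 0.113). The ubiquitin ligases that send class II to degradation were split, with Marchf8 at 15.7 to 44.1 CPM and Marchf1 at 2 counts in vehicle replicate 1 alone.

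The promoter-bound partners of CIITA were present in every library. All 7 genes of this list were tested, and 0 passed an adjusted or an unadjusted p of 0.05 in the edgeR test. For each of the 3 RFX subunits the DCA libraries lay above the vehicle libraries, an order found for 18.6% of all genes tested. Rfxap was at 20.2 and 13.1 CPM in the vehicle libraries against 28.8 and 33.6 CPM in the DCA libraries (log2 fold change 0.90, edgeR unadjusted p = 0.105). Rfxank was at 16.2 and 10.3 CPM in the vehicle libraries against 29.1 and 25.0 CPM in the DCA libraries (log2 fold change 1.03, edgeR unadjusted p = 0.0941). Rfx5, near the minimum for the test, was at 0.219 and 1.18 CPM in the vehicle libraries against 2.38 and 2.72 CPM in the DCA libraries (edgeR unadjusted p = 0.386). Among the NF-Y subunits, Nfyc lay lower in both DCA libraries, as for 14.7% of all genes tested. It was at 73.3 and 75.1 CPM without DCA against 60.9 and 66.9 CPM with DCA (log2 fold change -0.22, edgeR unadjusted p = 0.469). Nfyb, at 114 and 71.5 against 54.4 and 87.4 CPM, overlapped.

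Interferon-γ is the classical inducer of CIITA. Ifng itself had 5 counts in vehicle replicate 1 and 0 elsewhere, and the other 8 genes of that route were tested, with 0 past an adjusted or an unadjusted p of 0.05 in the edgeR test. Jak1, a kinase of the receptor, was at 344 and 286 CPM in the vehicle libraries against 248 and 264 CPM in the DCA libraries (log2 fold change -0.30, edgeR unadjusted p = 0.216). Socs1, the feedback inhibitor of that kinase, was at 199 and 231 CPM in the vehicle libraries against 268 and 258 CPM in the DCA libraries (log2 fold change 0.29, edgeR unadjusted p = 0.231). The treatments did not overlap for Jak1 (DCA below, as for 14.7% of all genes tested) or Socs1 (DCA above, as for 18.6%), and they overlapped for 5 of the 8 genes.

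Other ligands by which a presenting cell addresses T cells were also listed. Of these 8, 4 were tested, and 0 passed an adjusted or an unadjusted p of 0.05 in the edgeR test. Tnfsf9, the 4-1BB ligand, was at 19.3 and 32.5 CPM in the vehicle libraries against 35.7 and 33.02 CPM in the DCA libraries (log2 fold change 0.41, edgeR unadjusted p = 0.390). Pdcd1lg2, which encodes PD-L2, was at 1.26 and 11.2 CPM in the vehicle libraries against 24.7 and 11.0 CPM in the DCA libraries, and the treatments overlapped. Cd40 had 5 counts in vehicle replicate 1 alone, and Cd70 had none. On the receptor side, 3 of 5 listed genes were tested and 0 passed either threshold. Icos, the receptor of the ICOS ligand, was at 3320 to 3582 CPM with a log2 fold change of 0.057 (edgeR unadjusted p = 0.748). Cd28, the receptor for CD80 and CD86, was at 67.4 and 90.1 CPM in the vehicle libraries against 149.8 and 87.3 CPM in the DCA libraries (log2 fold change 0.59, edgeR unadjusted p = 0.144). Cd4 had 0 counts in all libraries.

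Markers of cells that could bring class II transcripts were counted as lists. Of 8 B cell markers, 5 were at 0 throughout, and Cd79b, at 37.4 to 55.1 CPM, made up nearly the whole summed level of 37.7 to 55.1 CPM. Cd79b was lower in both DCA libraries than in either vehicle library, as for 14.7% of all genes tested (log2 fold change -0.32, edgeR unadjusted p = 0.376). Of 9 dendritic cell markers, 4 were at 0 throughout, and the summed level of 57.9 to 97.5 CPM came almost wholly from Xcr1 (23.97 to 46.3 CPM) and Ccr7 (13.9 to 68.8 CPM). The dendritic cell sum was at 60.4 and 57.9 CPM without DCA and 97.5 and 67.6 CPM with it. Its 2 main genes differed in direction. Ccr7 was above in both DCA libraries, as for 18.6% of all genes tested (log2 fold change 1.22, edgeR unadjusted p = 0.0625). For Xcr1 the treatments overlapped (log2 fold change -0.39, edgeR unadjusted p = 0.430). Of 6 ILC3 markers, 4 were at 0 throughout, and the sum was at most 1.48 CPM. Among 8 T cell markers, 2 were at 0 throughout. They summed to 71.6 to 103.6 CPM, mostly Lat (57.1 to 76.9 CPM) and Cd3g (10.5 to 25.5 CPM), with Cd3e at 0 to 1.91 CPM. Epithelial markers summed to 12.2 to 20.0 CPM, with Epcam at 3.99 to 7.85 CPM. For mast cells and basophils, 4 of 7 markers were at 0 throughout. Kit, at 158.4 to 359 CPM, made up nearly the whole sum of 158.8 to 362 CPM for these cells. The part of all these cell types in the class II values was not tested.

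The profile of the class II chains and Cd74 over the 4 libraries, taken as the mean of their centred log2(CPM + 1) values, follows mainly H2-Ab1, since the other genes had few or no counts. Averaging with those genes makes the profile flatter than H2-Ab1 itself, so a short distance to it is not likeness to a member. The genes nearest to this averaged profile by Euclidean distance were Utp11, Trnau1ap, Rpl29, Rpl15 and Ifi30, at distances of 0.050 to 0.066, each highest in vehicle replicate 2 and lowest in vehicle replicate 1. With 4 points this says little, since 397 of 11180 genes had a Pearson correlation of at least 0.95 with that profile.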

How the data were processed

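RNA-Seq of 2 vehicle and 2 DCA libraries was re-analysed. Libraries were assigned by their labels. The submitters' processing notes name cutadapt 1.9, HISAT2 2.2.1 and mm10, and the methods of the study name DESeq2. The table deposited by the authors is named for FPKM but holds unnormalized counts in whole numbers. For the libraries, the methods of the study name a SMART-Seq HT kit and a Nextera XT kit. The counting tool, its annotation and its strand setting are not given in the sources used here. Reads from bases that genes on opposite strands share were not told apart here. If both mates of a pair were counted, the limit of a 0 would be higher.

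A mean of 1 CPM or more over the libraries was required for the test, the two-sided quasi-likelihood test of edgeR 4.0.16 after TMM scaling, in R 4.3.3, with p-values adjusted after Benjamini and Hochberg over all genes tested. The script was tested on simulated data. Fold changes are DCA over vehicle. Standard errors come from log2(CPM + 1), with a pseudocount of 1 CPM. Lengths, positions and overlaps come from GENCODE M21 (GRCm38), in which 25218 rows matched, in place of the planned RefSeq exons. In 1275 rows the symbol is missing, and they were kept. Named were the 9 members, and from each accessory list the 2 tested genes with the highest mean CPM and any with an unadjusted p under 0.05; defining markers were fixed as well. Other genes named (H2-Ea, H2-DMb2, H2-Oa, H2-Ob, Brd2, Dexi, Ctss, Ctsl, Ifi30, Marchf1, Marchf8, the RFX subunits, Ifng, Cd40, Cd70, Cd4, Cd79b, Xcr1, Ccr7, Lat, Cd3g, Kit and class I) were singled out after their values were seen, as were the GNAAC and ATTGG pair and the shares of genes at 0 at a like level. The members and lists were chosen with earlier results of these data known. Alternatives were other scalings and filters, DESeq2 1.42.0, limma 3.58.1, the replicate block, thinning of DCA replicate 2, other pseudocounts and lengths, and leaving out each library.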

Additional observations from a re-analysis of the deposited data

How the results depend on the processing

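Of the values for 14 named genes under the 9 alternatives that kept all libraries, 122 of 124 kept their direction and 0 had an adjusted p under 0.05. The exceptions were both H2-Ab1, whose log2 fold change of -0.87 became 0.081 with limma and 2.53 with the replicate block. With 1 library left out, H2-Ab1 ranged from -1.89 to 11.1 (11.1 without vehicle replicate 2, which leaves vehicle at 0), Cd86 from 0.16 to 13.8, H2-DMb1 from 0.47 to 11.7 (11.7 without vehicle replicate 1), H2-DMa from -2.10 to -0.37, and Ctsb from -0.039 to 0.29. Values that kept their direction but moved over 1.5 times were Tnfsf9 (0.051 to 0.83), Cd28 (0.14 to 0.93), Nfyb (-0.77 to -0.038) and Pdcd1lg2 (0.64 to 3.83), among others. The number of members past an adjusted p of 0.05 ranged from 0 to 1 (Cd86 without vehicle replicate 1), and that of all genes from 0 to 20 (20 without vehicle replicate 1). A fit without 1 library assumes that the lone library of that treatment varies like the other treatment. Over all genes it was 36 of 17706 with no filter on low counts and 253 of 12900 with DESeq2, which changed both the test and the genes tested, against 0 of 11184 in the test reported, and 0 of these were members. The median over the 9 genes lay between -0.053 and 0 under every alternative tried. These included leaving out H2-DMa and Ciita, which overlap other genes (chosen after seeing the data). Members with few or no counts hold this median near 0, so its narrow range says little about the others. The count of members with a mean of at least 1 RPKM was 4 with either length, although their order changed. Whether libraries with the same replicate number share mice or a culture is not given in the sources used here. Across genes their deviations correlated at 0.0197, which with 2 libraries per treatment cannot decide this. With the replicate block, the log2 fold change was 3.999 for Cd86 and 3.9996 for H2-DMb1, against 1.16 and 1.61 (both have a vehicle library at 0), with 0 genes past an adjusted p of 0.05. At the depths here a count of 0 allows between 0.0125 and 0.115 CPM.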
